A study of Homo sapiens with 12 samples.

Results

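The 29 genes described here are known targets of p53, a transcription factor that DNA damage and other stresses stabilise. Active p53 binds a response element near each target and raises transcripts for cell cycle arrest, cell death, DNA repair and metabolism, while targets such as MDM2 and PPM1D restrain p53 in return. The genes were read in MDA-MB-231, a human breast cancer cell line that is known to carry a mutant p53. The arrays do not read that mutation, and the level of the p53 transcript itself is not analysed here. The members were fixed by gene symbol, and every Affymetrix probe set (a group of short probes for a transcript) annotated with a single listed symbol was taken. This gave 65 of 54675 probe sets and 26 of the 29 genes, out of 19775 genes tested. BTG2, BBC3 and FDXR had no such probe set and are not analysed here.

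Sharp1 cells overexpressed Sharp1, a repressor encoded by BHLHE41 that binds the E-box sequence CACGTG. shHIF cells carried a retroviral construct with small hairpin RNA directed at HIF1a and HIF2a, the oxygen-regulated alpha subunits of the hypoxia-inducible factors. shGFP cells, the control of both, carried a retroviral hairpin against GFP. All cells were MDA-MB-231 grown without treatment in ordinary serum-containing medium, and each group had 4 arrays, lettered A to D. No source used here names the vector of the Sharp1 cells, so Sharp1 cells were compared with a hairpin control. The labels call the replicates biological without saying whether cultures were separate, so the tests speak only for the spread among these arrays, which may be technical.

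Values are log2 signals made with RMA by the submitters, and a difference of 1 is a doubling of signal. Array medians lay between 5.39 and 5.44. Arrays of a group correlated at 0.9957 or more, and arrays of different groups at 0.9950 or less. In shHIF cells EPAS1, the gene of HIF2 alpha, averaged 6.68, against 9.53 in shGFP cells, and HIF1A averaged 12.05 against 12.78. EPAS1 was also lower in Sharp1 cells, at 8.82. BHLHE41 averaged 9.24 in Sharp1 cells and 3.89 in shGFP cells on the probe set with the largest difference, while another of its 4 probe sets averaged 4.56 in Sharp1 cells and 6.62 in shGFP cells. All 8 genes taken to define the line, among them VIM and CD44, read above the median gene (6.58), and the 4 leukocyte markers tested read 5.02 or less. Of 7 luminal breast cell markers, 3 read above the median gene, with EPCAM highest at 9.22. Of 6 fibroblast markers, 1 did, COL1A1 at 7.51. The spiked hybridisation controls were dimmest on shHIF arrays A (mean 10.39) and D (10.45), where the remaining arrays had 10.63 to 10.81.

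Sharp1 overexpression was first compared with the shGFP control. Genes counted as called had a limma adjusted p under 0.05, with Benjamini-Hochberg adjustment over all 19775 genes. Of the 26 p53 target genes, 11 rose and 4 fell in Sharp1 cells. Over all genes, 15.3% were called higher and 11.8% lower, or 27.2% together, and brighter genes were called more often. At or above the median probe set (5.41), 15 of 24 members were called, against 39.8% of all genes at that level. At or above the median p53 target gene, 10 of 13 members were called, against 49.4% of genes at that level. Calls with a difference of at least 0.3 and groups that do not overlap numbered 6 higher and 2 lower among the members, against 7.32% and 6.08% of all genes. The arrays of the 2 groups did not overlap for 16 of the 26, against 28.9% of all genes. The median difference of the 26 genes was 0.08, and that of all genes was -0.002. The arrest gene GADD45A and the repair gene DDB2 rose most, and the secreted stress factor GDF15 and the pore-forming death effector BAX fell most.

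In shHIF cells, 8 of the 26 genes rose and 6 fell, against 17.6% called higher and 13.2% lower over all genes. In all, 30.8% of all genes were called in shHIF cells. At or above the median probe set 14 of 24 members were called, against 44.1% of genes, and at or above the median p53 target gene 9 of 13 members were, against 54.7% of genes. Calls of at least 0.3 without overlap numbered 5 higher and 4 lower, against 7.22% and 6.66% of all genes, and the groups did not overlap for 14 of the 26, against 28.6%. The members' median difference was -0.01, and that of all genes was 0.05. GDF15, GADD45A and the mitochondrial survival protein gene TRIAP1 rose most, and MDM2, PERP and RRM2B fell most. Without shHIF arrays A and D, the arrays with the lowest hybridisation controls, 7 rose and 6 fell. In that fit 15.5% of all genes were called higher and 10.1% lower. Of the 6 falls, 5 were also called with all arrays. The gap between the 3′ and 5′ actin probe sets, which widens as RNA degrades, was 0.94, 0.90, 0.91 and 0.62 on shHIF arrays A to D, against 0.59 to 0.74 on the shGFP arrays. It was 0.61, 0.56, 0.85 and 0.68 on Sharp1 arrays A to D, so Sharp1 C also lay above every shGFP array. Its part in the differences was not tested. Both comparisons use the same shGFP arrays, so they are not independent of each other.

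**Figure D1:**
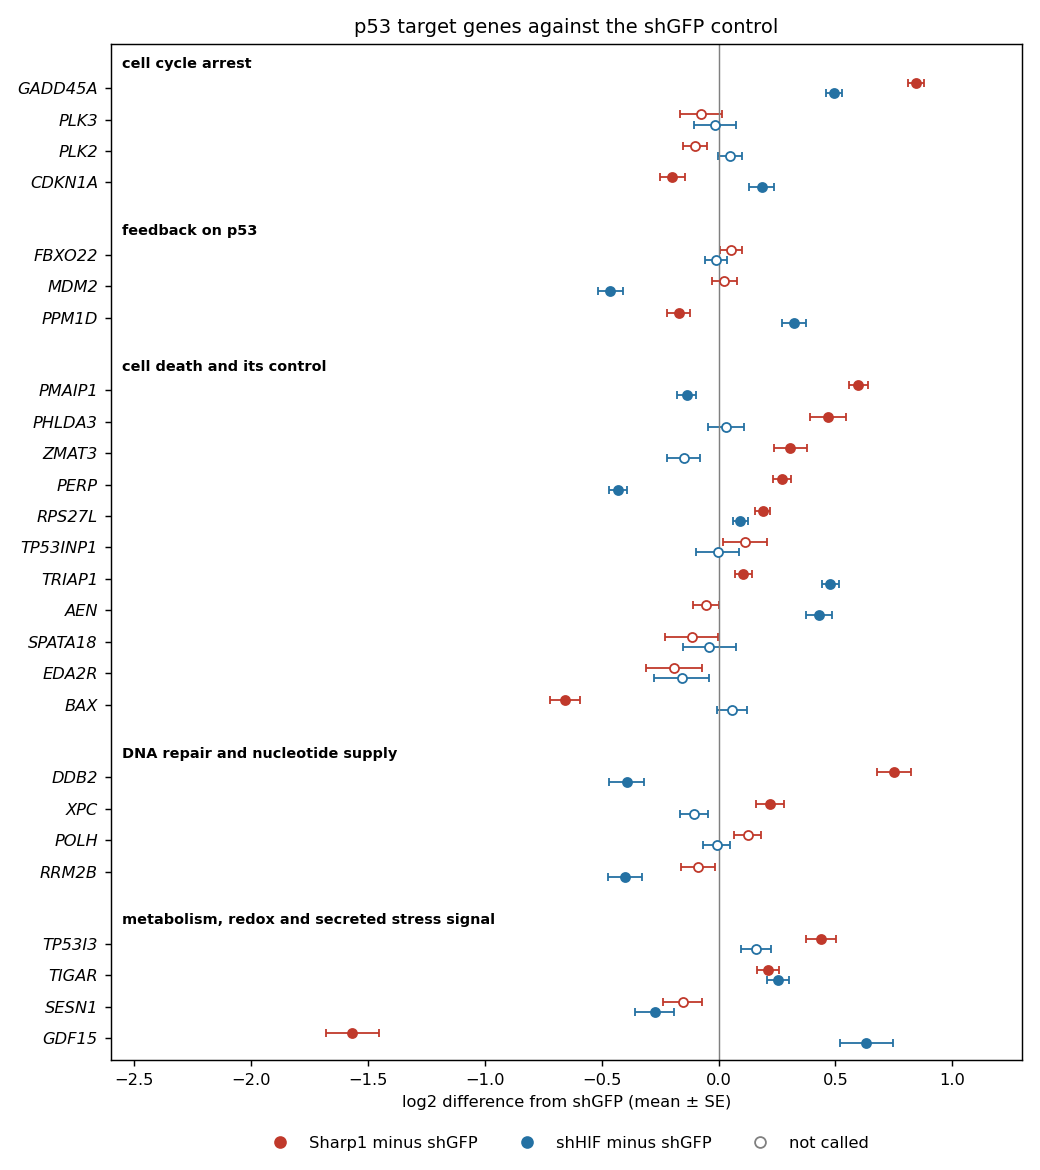
Log2 difference from shGFP (x axis, mean ± SE, n = 4 arrays per group) for the 26 p53 target genes, grouped by role, with Sharp1 minus shGFP in red above and shHIF minus shGFP in blue below in each row. Filled points were called and open points were not; GDF15 has the difference of largest size in each comparison, at -1.57 in Sharp1 cells and 0.63 in shHIF cells.

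Among the genes for arrest of the cell cycle, GADD45A, a stress-induced protein that inhibits the mitotic kinase CDK1, was higher in both kinds of cell. It read 12.04, 12.10, 12.12 and 12.05 on Sharp1 arrays A to D and 11.71, 11.74, 11.74 and 11.71 on the shHIF arrays, against 11.21, 11.21, 11.23 and 11.27 on the shGFP arrays. No array of any group overlapped those of another, and the SD within a group was at most 0.04. GADD45A rose 1.80-fold in Sharp1 cells (log2 0.84, SE 0.03, limma adjusted p = 3.61e-16) and 1.41-fold in shHIF cells (log2 0.49, SE 0.03, limma adjusted p = 2.22e-11). Sharp1 cells exceeded shHIF cells by 0.35 (SE 0.03, limma adjusted p = 3.38e-09).

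CDKN1A encodes p21, the inhibitor of cyclin-dependent kinases through which p53 arrests the cycle. It read 8.62, 8.69, 8.61 and 8.64 on the Sharp1 arrays and 8.92, 9.12, 9.09 and 8.96 on the shHIF arrays, against 8.80, 8.81, 8.87 and 8.87 on the shGFP arrays. Every Sharp1 array was below, and every shHIF array above, all shGFP arrays. The differences were small, a fall by 0.20 in Sharp1 cells (SE 0.05, limma adjusted p = 0.00631) and a rise of 0.19 in shHIF cells (SE 0.05, limma adjusted p = 0.00929). Compared directly, Sharp1 cells had less CDKN1A than shHIF cells (log2 -0.38, limma adjusted p = 2.06e-06). The polo-like kinases PLK2 and PLK3, which act in cell cycle checkpoints, did not pass in either comparison with shGFP. PLK2 differed by -0.10 in Sharp1 and 0.05 in shHIF cells, and PLK3 by -0.08 and -0.02 in the same order.

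Of the 3 genes that feed back on p53, 1 was called in Sharp1 cells (PPM1D, lower) and 2 in shHIF cells (PPM1D higher, MDM2 lower). Over all genes 27.2% were called in Sharp1 cells and 30.8% in shHIF cells. At or above the median probe set these shares were 39.8% and 44.1%. MDM2, the ubiquitin ligase that marks p53 for degradation, read 9.95, 9.79, 9.89 and 9.84 on the Sharp1 arrays and 9.35, 9.48, 9.43 and 9.25 on the shHIF arrays, against 9.77, 9.92, 9.83 and 9.84 on the shGFP arrays. The Sharp1 and shGFP arrays overlapped, and all shHIF arrays lay below both. MDM2 fell by 0.46 in shHIF cells (SE 0.05, limma adjusted p = 1.84e-07), which is 1.38-fold, and differed by 0.03 in Sharp1 cells (limma adjusted p = 0.813). MDM2 has 10 probe sets. In shHIF cells 3 of them fell, at -0.46, -0.62 and -0.38, and in Sharp1 cells limma called 0, with 0 also at an unadjusted p under 0.05. Of the other 7 probe sets, 6 read below the median probe set (5.41).

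PPM1D, the phosphatase WIP1 that removes activating phosphates from p53, was read differently by its 2 probe sets. On the brighter one it read 8.73, 8.82, 8.84 and 8.84 on the Sharp1 arrays and 9.25, 9.33, 9.33 and 9.30 on the shHIF arrays, against 8.95, 9.07, 8.89 and 9.01 on the shGFP arrays. The groups did not overlap on it, and it rose by 0.32 in shHIF cells (SE 0.05, limma adjusted p = 1.89e-05) and fell by 0.17 in Sharp1 cells (limma adjusted p = 0.0126). The dimmer probe set, at 4.75 in shHIF and 5.13 in shGFP cells, read below the median probe set (5.41). It was called lower in shHIF cells (-0.38), so the direction of PPM1D there depends on the probe set. The fall in Sharp1 cells was lost without shGFP array B (limma adjusted p = 0.0631), without Sharp1 array A (0.0538) and with the mean of both probe sets (0.0682), in a range of 0.00653 to 0.0682. FBXO22, part of a ubiquitin ligase that acts on p53, did not pass on its brightest probe set (0.05 in Sharp1 and -0.01 in shHIF cells). A second FBXO22 probe set was called higher in Sharp1 cells (0.26) and lower in shHIF cells (-0.30).

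Of the 11 measured genes of cell death and its control, 6 rose and 1 fell in Sharp1 cells, and 3 rose and 2 fell in shHIF cells. Over all genes 15.3% rose and 11.8% fell in Sharp1 cells, and 17.6% and 13.2% in shHIF cells. In a fit to genes at or above the median probe set alone, 24.4% rose and 18.2% fell in Sharp1 cells, and 25.8% and 20.8% in shHIF cells. BAX, whose protein permeabilises the outer mitochondrial membrane, was the one that fell in Sharp1 cells. It read 8.48, 8.81, 8.72 and 8.62 on the Sharp1 arrays and 9.28, 9.47, 9.35 and 9.38 on the shHIF arrays, against 9.37, 9.18, 9.33 and 9.37 on the shGFP arrays. All Sharp1 arrays lay below all others, and the shHIF and shGFP arrays overlapped. BAX was 1.58-fold lower in Sharp1 cells (log2 -0.66, SE 0.06, limma adjusted p = 1.01e-08) and differed by 0.06 in shHIF cells (limma adjusted p = 0.558). Its other probe set gave -0.61 and 0.03.

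Because Sharp1 binds CACGTG, the promoters of the members were searched for it on both strands, in RefSeq windows of 300 bases from 250 before to 50 after an annotated start (GRCh38.p14). The window of BAX, at chr19:48954625-48954924 on the + strand, holds 4 copies and is printed 5′ to 3′ with each copy in capitals.

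BAX: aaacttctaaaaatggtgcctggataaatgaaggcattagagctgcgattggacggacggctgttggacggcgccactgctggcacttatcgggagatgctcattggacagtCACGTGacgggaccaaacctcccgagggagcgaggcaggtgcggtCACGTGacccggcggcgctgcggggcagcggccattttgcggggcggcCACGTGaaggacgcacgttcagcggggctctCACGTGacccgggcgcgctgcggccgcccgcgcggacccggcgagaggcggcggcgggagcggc

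The copies begin at -138, -93, -45 and -14 relative to the start. Of 35114 windows, 7.26% hold at least 1 copy and 0.0142% hold at least 4. The cut of 4 is the number found in BAX, so that share is not an independent test. Windows were found for 24 of the 29 members, with 33 starts. Of these starts, 5 held CACGTG (15.2%), in BAX, AEN, EDA2R and BBC3. The windows of EDA2R overlap and hold the same copy, so starts of 1 gene are not independent. Counted by gene, 4 of 24 held CACGTG (16.7%). AEN and EDA2R were not called in Sharp1 cells (-0.06 and -0.19), and BBC3 is not analysed here. GDF15, CDKN1A and PPM1D, the other members called lower in Sharp1 cells, had no CACGTG in their windows. A match in these windows is a description of the sequence and does not show binding.

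PMAIP1, which encodes the BH3-only death protein NOXA, moved against BAX in Sharp1 cells. It read 12.01, 11.93, 11.97 and 12.03 on the Sharp1 arrays and 11.17, 11.24, 11.27 and 11.33 on the shHIF arrays, against 11.48, 11.34, 11.39 and 11.35 on the shGFP arrays. The Sharp1 arrays stood wholly above the rest, and the shHIF arrays lay just below the shGFP arrays. PMAIP1 rose 1.51-fold in Sharp1 cells (log2 0.60, SE 0.04, limma adjusted p = 1.21e-11), with 0.75 on its other probe set. In shHIF cells it fell by 0.14 (limma adjusted p = 0.0122), while its other probe set gave -0.10 and was not called (limma adjusted p = 0.188). The call on the brighter probe set was lost without shGFP array A (0.0728), without shHIF array A (0.0606) and without a variance trend (0.0700). Its limma adjusted p ranged from 0.00257 to 0.0728.

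PERP, a membrane protein of desmosomes with a role in p53-dependent death, moved in opposite directions. It read 11.52, 11.42, 11.48 and 11.50 on the Sharp1 arrays and 10.80, 10.73, 10.84 and 10.75 on the shHIF arrays, against 11.19, 11.25, 11.16 and 11.24 on the shGFP arrays. The groups were wholly separate, Sharp1 above and shHIF below the control. PERP rose by 0.27 in Sharp1 cells (SE 0.04, limma adjusted p = 3.82e-06) and fell by 0.43 in shHIF cells (SE 0.04, limma adjusted p = 3.04e-09), and the next brightest probe set gave 0.22 and -0.42. Another 3 PERP probe sets read below the median probe set, and with the mean of all 5 the Sharp1 rise was 0.10 (limma adjusted p = 0.178).

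PHLDA3, which competes with the kinase AKT for membrane lipids, rose in Sharp1 cells alone among the 2 comparisons with shGFP. It read 7.09, 7.34, 7.22 and 7.25 on the Sharp1 arrays and 6.87, 6.76, 6.79 and 6.73 on the shHIF arrays, against 6.70, 6.65, 6.78 and 6.89 on the shGFP arrays. The Sharp1 arrays lay above all others, and the remaining groups overlapped. The rise was 1.38-fold in Sharp1 cells (log2 0.47, SE 0.08, limma adjusted p = 3.16e-05), and the difference in shHIF cells was 0.03 (limma adjusted p = 0.809). Sharp1 cells exceeded shHIF cells directly by 0.44 (limma adjusted p = 4.90e-05).

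ZMAT3, an RNA-binding zinc finger protein that regulates splicing, read 9.79, 9.55, 9.74 and 9.93 on the Sharp1 arrays and 9.25, 9.23, 9.22 and 9.49 on the shHIF arrays, against 9.53, 9.41, 9.52 and 9.32 on the shGFP arrays. Sharp1 arrays lay above the others, with Sharp1 B close to shGFP A. It rose by 0.31 in Sharp1 cells (SE 0.07, limma adjusted p = 0.00156), and 4 of its 5 probe sets were called higher there. In shHIF cells the probe sets disagreed, from -0.66 on one called lower to 0.20 on one called higher, and the brightest gave -0.15 (limma adjusted p = 0.120). That difference passed without shHIF array D (-0.22, limma adjusted p = 0.0157), without shHIF arrays A and D (0.0322) and with array weights (0.0437), so no direction is given for ZMAT3 in shHIF cells.

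AEN and TRIAP1 were the death-related genes with the largest rises in shHIF cells. AEN, a nuclease that digests DNA in dying cells, read 8.13, 8.27, 8.24 and 8.23 on the Sharp1 arrays and 8.73, 8.76, 8.71 and 8.63 on the shHIF arrays, against 8.29, 8.25, 8.21 and 8.35 on the shGFP arrays. The shHIF arrays alone stood apart, and the rise was 1.35-fold (log2 0.43, SE 0.06, limma adjusted p = 1.25e-06). TRIAP1, which restrains apoptosis at mitochondria, read 11.24, 11.31, 11.34 and 11.31 on the Sharp1 arrays and 11.68, 11.73, 11.62 and 11.67 on the shHIF arrays, against 11.20, 11.19, 11.15 and 11.24 on the shGFP arrays. It rose 1.39-fold in shHIF cells (log2 0.48, SE 0.04, limma adjusted p = 2.16e-10). Its rise in Sharp1 cells, 0.11 (limma adjusted p = 0.0309), was lost in 8 of 21 alternatives, in a range of 0.0118 to 0.116. These 8 were the fit over all probe sets (0.0505), no variance trend (0.116) and the fits without shGFP array A (0.0606), B (0.0684) or C (0.109) or without Sharp1 array B (0.0616), C (0.107) or D (0.0704).

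RPS27L, a ribosomal protein paralogue that binds MDM2, averaged 12.61 ± 0.02 in Sharp1 cells and 12.51 ± 0.04 in shHIF cells, against 12.42 ± 0.05 in shGFP cells (SD, n = 4 each). It rose by 0.19 in Sharp1 cells (limma adjusted p = 7.47e-05). In shHIF cells its brightest probe set was called higher by 0.09 (limma adjusted p = 0.0336) and the other 2 were called lower, by -0.23 and -0.27, so its direction there is not settled. The call on the brightest was also lost without any one of shGFP arrays A, B and C and shHIF arrays A and B, in a range of limma adjusted p of 0.0132 to 0.225. EDA2R, a receptor of the TNF family, and SPATA18, which acts in mitochondrial quality control, averaged 5.10 or less in every group, below the median probe set, and were not called. TP53INP1, which acts in autophagy and p53 phosphorylation, differed by 0.11 in Sharp1 cells and by less than 0.01 in size in shHIF cells, and neither passed.

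**Figure D2:**
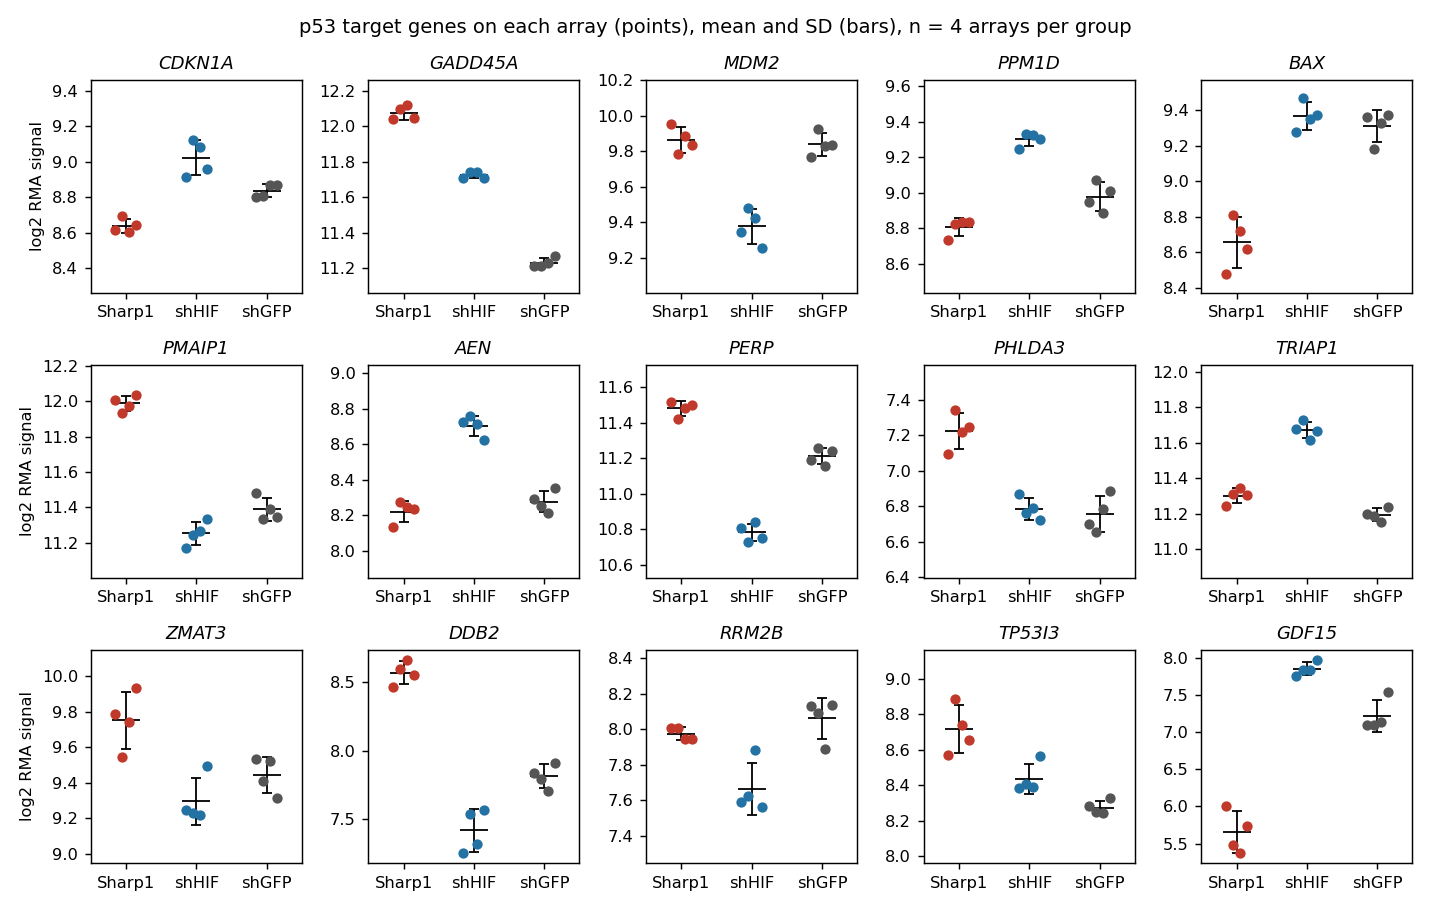
Log2 RMA signal (y axis, scaled per gene) of 15 p53 target genes on each array of the Sharp1, shHIF and shGFP groups (x axis), with points for arrays and bars for mean ± SD (n = 4). GADD45A, CDKN1A, PPM1D, PMAIP1, PERP, TRIAP1, DDB2, TP53I3 and GDF15 show 3 groups with no overlap. BAX, PHLDA3 and ZMAT3 show a separate Sharp1 group, and MDM2, AEN and RRM2B a separate shHIF group.

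Of the 4 genes of DNA repair and nucleotide supply, 2 rose in Sharp1 cells and 2 fell in shHIF cells, where 15.3% of all genes rose in the first comparison and 13.2% fell in the second. In a fit to genes at or above the median probe set alone, these shares were 24.4% and 20.8%. DDB2, a subunit of the complex that finds ultraviolet damage for nucleotide excision repair, read 8.46, 8.59, 8.66 and 8.55 on the Sharp1 arrays and 7.25, 7.54, 7.32 and 7.57 on the shHIF arrays, against 7.84, 7.79, 7.71 and 7.91 on the shGFP arrays. Sharp1 arrays were wholly above and shHIF arrays wholly below the control. DDB2 rose 1.68-fold in Sharp1 cells (log2 0.75, SE 0.07, limma adjusted p = 1.04e-08) and fell by 0.39 in shHIF cells (SE 0.07, limma adjusted p = 0.000151). Between the 2 kinds of cell it differed 2.21-fold (log2 1.14 for Sharp1 minus shHIF, SE 0.07, limma adjusted p = 2.78e-12).

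The p53 response element is built of copies of a degenerate decamer, and the windows were also searched for that decamer on both strands. One annotated start of DDB2, at chr11:47214724-47215023 on the + strand, holds 2 copies separated by a single base, and AEN, at chr15:88621090-88621389 on the + strand, holds 1. The DDB2 window is shown as the one among the members with 2 decamers and the AEN window as the one with both motifs, and capitals mark the decamers and, in AEN, also CACGTG.

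DDB2: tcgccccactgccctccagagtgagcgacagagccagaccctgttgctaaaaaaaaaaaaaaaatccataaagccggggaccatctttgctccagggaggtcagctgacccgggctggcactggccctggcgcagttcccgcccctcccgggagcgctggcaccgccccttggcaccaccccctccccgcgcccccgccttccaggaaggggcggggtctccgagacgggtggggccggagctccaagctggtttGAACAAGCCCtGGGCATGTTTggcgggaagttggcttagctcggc

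AEN: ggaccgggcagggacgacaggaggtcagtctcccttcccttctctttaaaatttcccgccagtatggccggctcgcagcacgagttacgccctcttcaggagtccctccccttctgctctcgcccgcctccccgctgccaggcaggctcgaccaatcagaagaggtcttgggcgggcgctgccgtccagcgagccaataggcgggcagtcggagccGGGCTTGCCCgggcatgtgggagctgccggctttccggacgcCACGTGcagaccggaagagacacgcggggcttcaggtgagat

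The DDB2 decamers begin at 6 and 17 after the start, and in AEN the decamer begins at -34 and CACGTG at 9. A decamer was in 6 of the 33 starts of the members (18.2%), those of PLK2, SESN1, DDB2, RPS27L, AEN and FDXR, against 6.63% of all windows. At least 2 were in 0.308% of all windows, a cut that is the number found in DDB2 and so no independent test. The cores of the HIF-binding sequence, ACGTG and GCGTG, were in 30.3% and 39.4% of the members' starts, against 21.4% and 36.5% of all windows. Any CACGTG also counts as ACGTG, and overlapping starts of a gene, as in MDM2, can count the same site more than once.

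XPC, the damage sensor that starts nucleotide excision repair, rose by 0.22 in Sharp1 cells (SE 0.06, limma adjusted p = 0.00591) and differed by -0.10 in shHIF cells (limma adjusted p = 0.200). RRM2B, a subunit of the ribonucleotide reductase that supplies deoxynucleotides outside S phase, read 8.01, 8.01, 7.94 and 7.94 on the Sharp1 arrays and 7.59, 7.62, 7.88 and 7.56 on the shHIF arrays, against 8.13, 8.10, 7.89 and 8.13 on the shGFP arrays. The shHIF arrays lay below the shGFP arrays, though shHIF C at 7.88 nearly met shGFP C at 7.89. It fell by 0.40 in shHIF cells (SE 0.07, limma adjusted p = 0.000116) and differed by -0.09 in Sharp1 cells (limma adjusted p = 0.467). POLH, the polymerase that copies past ultraviolet damage, differed by 0.12 in Sharp1 cells and -0.01 in shHIF cells when read on the brightest of its 6 probe sets. POLH did not pass in Sharp1 cells (limma adjusted p = 0.119), except with array weights (0.0488), and a dimmer probe set of it was called higher there (0.25).

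GDF15, a secreted TGF-beta family member that rises with many stresses, had the widest range of the members. It read 6.01, 5.49, 5.37 and 5.74 on the Sharp1 arrays and 7.76, 7.84, 7.83 and 7.97 on the shHIF arrays, against 7.10, 7.09, 7.14 and 7.54 on the shGFP arrays. Sharp1 arrays were all below and shHIF arrays all above the control. The Sharp1 arrays lay near the median probe set (5.41), and array C below it, so the size of the fold in Sharp1 cells rests on a dim signal. GDF15 was 2.96-fold lower in Sharp1 cells (log2 -1.57, SE 0.11, limma adjusted p = 4.46e-11) and 1.55-fold higher in shHIF cells (log2 0.63, SE 0.11, limma adjusted p = 9.61e-05). Sharp1 cells had 4.59-fold less than shHIF cells (limma adjusted p = 4.51e-14). These values come from 1 probe set, whose type (x_at) may also hybridise with similar sequences. The other 2 read below the median probe set and were not called, and with the mean of all 3 the differences were -0.58 in Sharp1 cells (limma adjusted p = 8.05e-06) and 0.19 in shHIF cells (0.0637).

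TP53I3, a quinone reductase linked to oxidative stress, read 8.57, 8.89, 8.74 and 8.66 on the Sharp1 arrays and 8.38, 8.40, 8.39 and 8.56 on the shHIF arrays, against 8.28, 8.25, 8.24 and 8.33 on the shGFP arrays. Both groups lay above the control, and the Sharp1 arrays were the highest. It rose 1.36-fold in Sharp1 cells (log2 0.44, SE 0.06, limma adjusted p = 5.83e-06). The shHIF difference of 0.16 did not pass (limma adjusted p = 0.0589), though it passed in 4 of 21 alternatives: without dim genes (0.0426), with the 2 groups alone (0.0478), and without Sharp1 array A (0.0482) or B (0.0351).

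TIGAR, which lowers fructose-2,6-bisphosphate and so slows glycolysis, averaged 9.31 ± 0.04 in Sharp1 cells and 9.36 ± 0.04 in shHIF cells, against 9.10 ± 0.06 in shGFP cells (SD, n = 4 each). It rose by 0.21 (limma adjusted p = 0.00113) and 0.26 (limma adjusted p = 0.000137), and Sharp1 minus shHIF was -0.04 (SE 0.05, limma adjusted p = 0.492). SESN1, a leucine-regulated inhibitor of mTORC1, averaged 6.72 ± 0.09 in Sharp1 cells and 6.60 ± 0.15 in shHIF cells, against 6.87 ± 0.08 in shGFP cells. It fell by 0.27 in shHIF cells (limma adjusted p = 0.0142), a call lost without shGFP array B (0.0634), shHIF array A (0.0515), shHIF array D (0.0543) or shHIF arrays A and D together (-0.15, adjusted p = 0.284). Over its alternatives that adjusted p ranged from 0.00575 to 0.284.

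Sharp1 and shHIF cells were then compared directly. Of the 26 genes, 11 were higher and 7 lower in Sharp1 than in shHIF cells, against 18% and 20.4% of all genes and 38.4% together. At or above the median probe set 18 of 24 members were called, against 53.8% of genes, and at or above the median p53 target gene 11 of 13 members were, against 64.9% of genes. Calls of at least 0.3 without overlap numbered 9 higher and 6 lower, against 10.5% and 9.91% of all genes. DDB2 (1.14), PMAIP1 (0.73) and PERP (0.70) were the members farthest above, and GDF15 (-2.20), BAX (-0.71) and PPM1D (-0.49) the farthest below. AEN (-0.48), CDKN1A (-0.38) and TRIAP1 (-0.37) were also lower in Sharp1 cells, and MDM2 (0.49), ZMAT3 (0.46), PHLDA3 (0.44) and XPC (0.32) were higher. PPM1D was called in opposite directions by its 2 probe sets here as well, the dimmer of which read below the median probe set. The PLK2 difference of -0.15 (limma adjusted p = 0.0246) and the RPS27L difference of 0.09 (limma adjusted p = 0.0252) were the weakest calls. Both were lost without a variance trend (0.104 and 0.120), and that of PLK2 also with arrays centred (0.113). That of PLK2 was lost without shHIF array B or C or Sharp1 array B (limma adjusted p = 0.0802, 0.0887 and 0.113), and that of RPS27L without shHIF array C or Sharp1 array B or C (0.0751, 0.0595 and 0.0697).

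**Figure D3:**
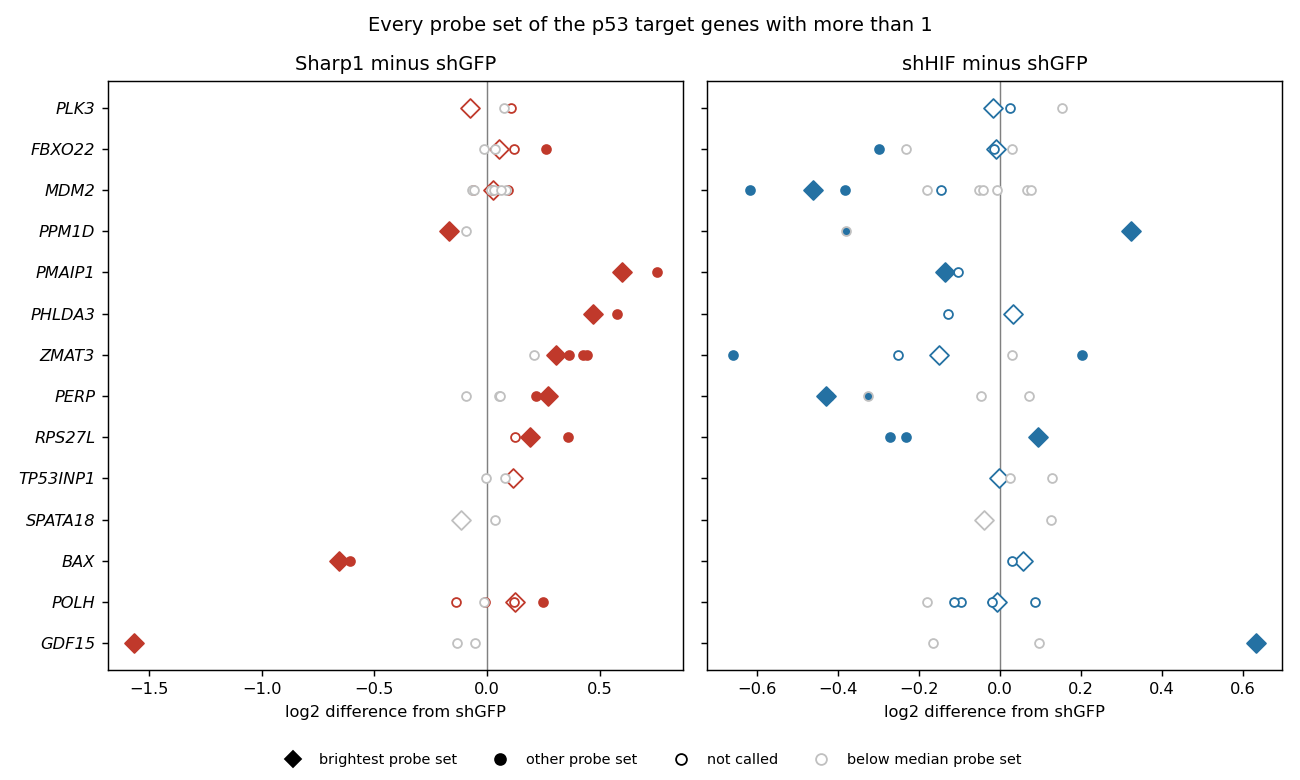
Log2 difference from shGFP (x axis) of every probe set of the 14 p53 target genes with more than 1 (rows), for Sharp1 (left) and shHIF (right), from the fit over all probe sets. Diamonds mark the brightest probe set and filled symbols were called. BAX, PMAIP1 and PHLDA3 probe sets lie close together in Sharp1 cells. In shHIF cells those of PPM1D, RPS27L and ZMAT3 were called in opposite directions, and other genes have probe sets on both sides of 0 without opposite calls.

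Read over all 65 probe sets, 19 were called higher and 5 lower in Sharp1 cells, against 9.8% and 8.26% of all 54675 probe sets. In shHIF cells 9 were called higher and 15 lower, against 10.7% and 11.5%. Probe sets of 1 gene are not independent of each other.

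Other p53 targets numbered 48 tested of 50, and 14 rose and 13 fell in Sharp1 cells, with KITLG, a receptor ligand, up by 0.99 (SE 0.06), BCL6, a repressor, by 0.72 and ANKRA2 by 0.70. TGFA, a ligand of the EGF receptor, fell by 1.05 (SE 0.06), STEAP3, a metalloreductase of iron uptake, by 0.93 and REV3L, a translesion polymerase subunit, by 0.83. In shHIF cells 16 rose and 11 fell, led by CSNK1G1, a casein kinase (0.44), PIDD1, a death domain protein (0.39), and FUCA1, a lysosomal fucosidase (0.34), and by TNFAIP8 (-0.73), TGFA (-0.64) and the death receptor FAS (-0.50). In each comparison 56.2% of this list was called, against 27.2% of all genes in Sharp1 and 30.8% in shHIF cells. Of genes at or above the median probe set, 39.8% and 44.1% were called in the same order. At or above the median p53 target gene these shares were 49.4% and 54.7%. The median difference of the list was -0.01 in Sharp1 cells and 0.05 in shHIF cells.

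Regulators and cofactors of p53 numbered 33 tested of 35. In Sharp1 cells 8 rose and 4 fell, with HIPK2, a kinase of p53, at 0.32, TTC5 at 0.27 and TP53RK at 0.25, and with the SUMO ligase PIAS1 at -0.35, the deacetylase SIRT1 at -0.24 and TP53BP2 at -0.20. In shHIF cells 9 rose and 3 fell, with BRD7 and the ubiquitin ligase COP1 each at 0.31 and PPP1R13B at 0.30, and with PPP1R13L at -0.39, HIPK2 at -0.35 and the checkpoint kinase ATR at -0.33. The called share was 36.4% in each comparison, against 27.2% of all genes in Sharp1 and 30.8% in shHIF cells, and below the 39.8% and 44.1% of genes at or above the median probe set. The median difference was 0.06 in Sharp1 cells and 0.04 in shHIF cells. TP53BP2, PPP1R13B and PPP1R13L encode the ASPP family of p53-binding proteins.

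Genes that p53 lowers through p21 and the DREAM repressor complex are mostly genes of mitosis and DNA replication. Of 27 tested, 1 rose and 6 fell in Sharp1 cells, RRM2 at 0.21 and, among the falls, TOP2A at -0.30, ECT2 at -0.22 and CCNE2 at -0.20. In shHIF cells 8 rose and 2 fell, with MYBL2 at 0.40, KIF23 at 0.36 and E2F1 at 0.35, and with CCNA2 at -0.26 and AURKA at -0.15. The called share of the list was 25.9% in Sharp1 cells, against 27.2% of all genes, and 37% in shHIF cells, against 30.8%. Both lay below the 39.8% and 44.1% of genes at or above the median probe set. Compared directly, 5 were higher and 13 lower in Sharp1 than in shHIF cells (66.7% called, against 38.4% of all genes), with a median difference of -0.14 against -0.06 over all genes. In that comparison 53.8% of genes at or above the median probe set were called, and 64.9% at or above the median p53 target gene.

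**Figure D4:**
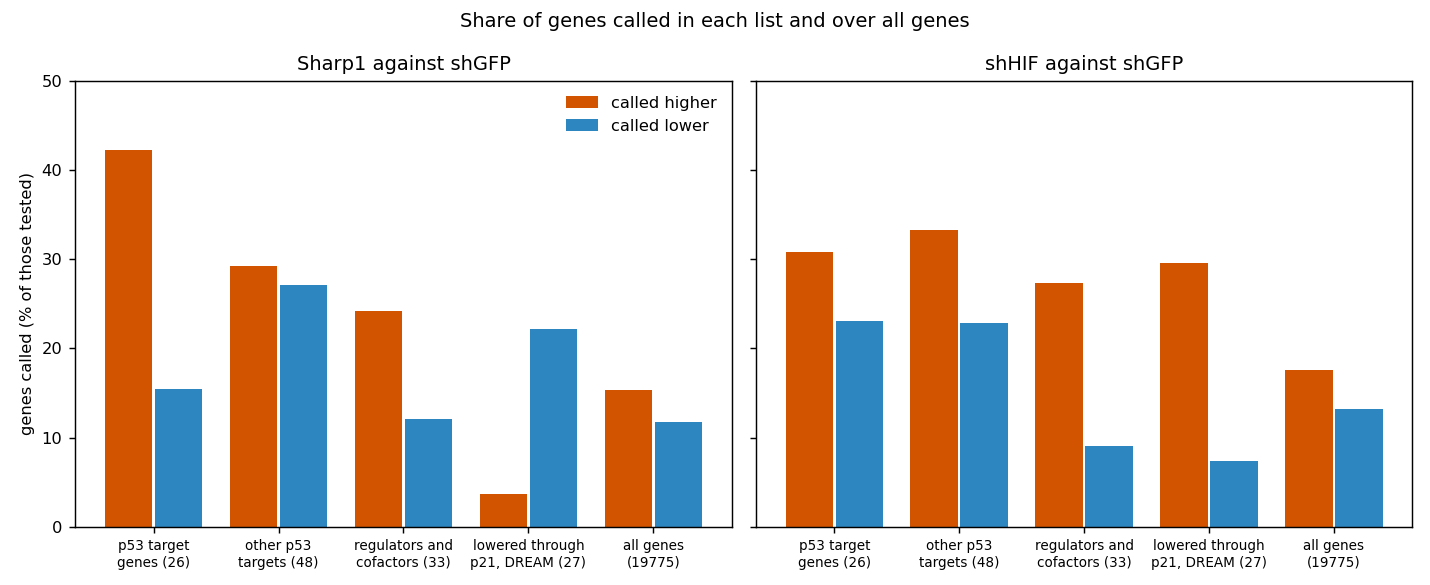
Percent of tested genes called higher (orange) and lower (blue) in the p53 target genes, 3 further lists and all genes (x axis), for Sharp1 (left) and shHIF (right) against shGFP. In Sharp1 cells 42.3% of the p53 target genes were called higher and 15.4% lower, and in shHIF cells 30.8% and 23.1%.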

How the data were processed

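The deposited values are log2 expression values, 1 per probe set and array, which the authors made with RMA per the submitters' processing notes. The sources used here give no RMA version. The platform annotation gave 41097 probe sets 1 gene symbol, 41043 of them matched by gene ID to the RefSeq gene table of GRCh38.p14. Where a gene had several probe sets, the brightest on average across the 12 arrays was read. In R 4.3.3, limma 3.58.1 was fitted to all 12 arrays with a mean per group and eBayes with trend, and p-values were adjusted over 19775 genes per comparison, or over 54675 probe sets where every probe set was read. Arrays have no count depth, and their number limits the precision. The fit was tested on simulated data. Promoter windows are RefSeq sequences.

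The members, lists and alternatives were chosen with earlier results of these data known. Values on every array are given for CDKN1A, MDM2, BAX, PMAIP1 and each member called against shGFP with a difference of at least 0.3 and groups that do not overlap. Of each further list, up to 3 called genes per direction are named. Same-lettered arrays were not paired in the fit, because no label says that a letter marks a shared culture, day or batch. The deviations of same-lettered arrays from the group means correlated between -0.18 and 0.14.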

Additional observations from a re-analysis of the deposited data

Results flagged for a closer look

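Among 78 sets of 4 arrays (26 genes in 3 groups), 9 had 1 array far from the other 3, where chance gives about 1 in 20. For GDF15, shGFP array D read 7.54, against 7.09 to 7.14 on the other shGFP arrays. For PPM1D, Sharp1 array A read 8.73, against 8.82 to 8.84. Sharp1 array B was low for PLK2 (11.41) and high for TP53INP1 (6.75). shHIF array D was high for ZMAT3 (9.49) and TP53I3 (8.56), and RRM2B was low on shGFP array C (7.89). shGFP array B was low for PLK3 (6.48) and high for SESN1 (6.996).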

How the results depend on the processing

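Over 21 alternatives, 12 of 15 member calls in Sharp1 against shGFP, 9 of 14 in shHIF against shGFP and 15 of 18 in Sharp1 against shHIF kept their direction and passed throughout. With the mean of all probe sets of a gene, 5 members were called higher in shHIF cells instead of 8, against 15.2% of all genes instead of 17.6%. PPM1D turned to -0.028 and RPS27L to -0.14 there, and neither passed. With the replicate block, 11 members were higher and 4 lower in Sharp1 cells and 8 higher and 6 lower in shHIF cells, as without it, and the letters showed no shared deviation to pair on. Other calls lost or gained are given beside their genes above, except that RPS27L in shHIF cells also missed the threshold in 9 alternatives that left its sign positive, FBXO22 passed in Sharp1 against shHIF with the mean of its probe sets (0.20), POLH passed there with arrays centred (0.17), and PPM1D did not with the mean of its probe sets (-0.10). The cause was not tested. Signal near background limits EDA2R and SPATA18 and the dimmer probe sets of MDM2, PPM1D, GDF15 and PERP, and the size of the GDF15 difference in Sharp1 cells.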
